A study of Mus musculus with 6 samples.

Results

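The genes described here make cholesterol, sense it and move it. They are 28 genes of sterol synthesis, of control by the sterol regulatory element binding proteins (SREBPs) and of cholesterol transport, chosen by name, and all 28 were found among the 24421 rows of the table. They were measured by messenger RNA sequencing of primary mouse cultures of proximal tubular epithelium, the part of the nephron that reabsorbs most of the filtrate. Each of the 6 libraries came from cells given 20 µM erastin2 for 24 h. Erastin2 inhibits the cystine importer system xc-, so that glutathione runs out; ferroptosis, a form of death driven by lipid peroxidation, can follow. The groups were 3 libraries labelled Atg5KO and 3 labelled Atg5F/F (Atg5 flanked by loxP sites). ATG5 joins LC3 to lipids as the autophagosome grows. The labels put all 6 libraries in 1 batch. They name neither the Cre nor how it was delivered, and they give no mouse age, sex or strain. Nor do they say whether replicates came from separate animals or cultures, so the p-values reflect the scatter among these 3 libraries a group, and that scatter could be purely technical. No group was left untreated, so a genotype difference that was there before erastin2 and a genotype-dependent response to it cannot be told apart.

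Cholesterol is built from acetyl-CoA through mevalonate, farnesyl diphosphate, squalene and lanosterol, and the pathway also feeds ubiquinone and protein prenylation. When sterols in the endoplasmic reticulum run low, SCAP escorts the SREBPs to the Golgi, where proteases free them to switch on the synthesis genes; INSIG proteins hold SCAP back when sterols are ample. When oxysterols accumulate, liver X receptors (LXRs) switch on the export pumps ABCA1 and ABCG1. Cholesterol taken up by endocytosis leaves the lysosome through NPC2 and NPC1. Some intermediates bear on ferroptosis: 7-dehydrocholesterol, the substrate of DHCR7, is an oxidisable sterol that can shield membranes from peroxidation.

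Values are FPKM, fragment counts that divide out gene length and library size, so levels of different genes can be compared. The FPKM imply 15528454 to 30004933 reads per library, and members rested on 86 reads (Tm7sf2) to 11515 reads (Abca1) in a library. Fold changes are Atg5KO-labelled over Atg5F/F-labelled on the log2(FPKM + 1) scale, which understates the change of low genes, and a gene was called at a limma adjusted p under 0.05 over all genes tested. Percent changes are of mean FPKM. Atg5 itself was 13.3, 11.5 and 12.7 FPKM in KO-labelled libraries, against 8.76, 8.95 and 7.94 FPKM in F/F-labelled libraries (log2 fold change 0.50, SE 0.066, limma adjusted p = 5.5e-04). Its transcript was thus higher in libraries labelled as knockouts, and a whole-gene level says nothing about a missing exon, so every direction below rests on the labels. An exact two-sided permutation test of 3 values against 3 cannot give a p below 0.1, so calls rest on the fit over all genes.

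The tubule identity of the cells was partial and differed between groups. Of 16 proximal tubule markers 7 were expressed enough to be tested. Of these 7, 6 fell and 1, Aqp1, rose. The summed level of the list (mostly Ggt1 and Lrp2) was 128.3 to 140.4 FPKM in KO-labelled libraries, against 226.8 to 250.5 FPKM in F/F-labelled libraries. Slc22a8 was at 0 in all libraries, and Slc34a1 and Slc5a2 averaged under 0.14 FPKM in both groups. Of 5 smooth muscle markers 3 were tested and all 3 rose (sums of 231.1 to 289.4 FPKM in KO-labelled and 66.6 to 73.3 FPKM in F/F-labelled libraries), while Myh11 and Des stayed under 0.1 FPKM on average. Sums in KO-labelled and F/F-labelled libraries were 0.61 to 0.94 and 1.68 to 2.74 FPKM for 8 fibroblast and pericyte markers (mostly Cspg4). They were 0.88 to 1.46 and 0.29 to 0.53 FPKM for 6 collecting duct markers. Nearly all of that was Hsd11b2, on 11 to 47 reads a library and not tested. For 5 endothelial markers (nearly all Kdr) the sums were 5.27 to 6.56 and 8.49 to 10.0 FPKM. The 5 loop and distal tubule markers summed to at most 0.049 FPKM in KO-labelled and 0.10 FPKM in F/F-labelled libraries. The sums of podocyte markers (27.6 to 31.1 and 27.2 to 31.3 FPKM, mostly Synpo) and leukocyte markers (3.85 to 4.82 and 4.59 to 5.71 FPKM, mostly Cd68) overlapped between the groups. Single markers did differ: Podxl rose (means of 2.86 and 1.57 FPKM) and Wt1 fell (2.43 and 3.56 FPKM), while Synpo was not called. Cd68 was 3.84 to 4.39 FPKM in KO-labelled and 4.52 to 5.49 FPKM in F/F-labelled libraries. Its groups did not overlap, yet it was not called (limma adjusted p = 0.062). Calb1, Pvalb, Aqp2, Foxi1, Adgre1 and Cd3e were at 0 throughout. In bulk RNA, fewer cells of a type and less RNA per cell cannot be told apart, and the part of these marker differences in the results below was not tested.

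Under erastin2 the 28 genes did not move as a block. In KO-labelled libraries the export pumps Abca1 and Abcg1 fell by 44.1% (Abca1) and fell by 37.3% (Abcg1), while Lpin1, Stard4, Insig1, Hsd17b7 and Npc1 rose. Hmgcs1, Fdps, Fdft1 and Ebp rose by smaller steps, and Sqle and Srebf2 fell. Of the 28 members, all tested, 9 rose, 4 fell and 15 were not called (46.4% called, against a background of 39.2% of 11559 genes tested, with 21.3% higher and 17.9% lower). The groups did not overlap for 16 of 28 members, where 51.9% of all tested genes did not overlap. These shares are near the background, so the members were called about as often as genes at large. Their median log2 fold change was 0.04, beside 0.02 over all genes tested. Without Atg5KO replicate 2 the count of lower members was 7.

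**Figure D1:**
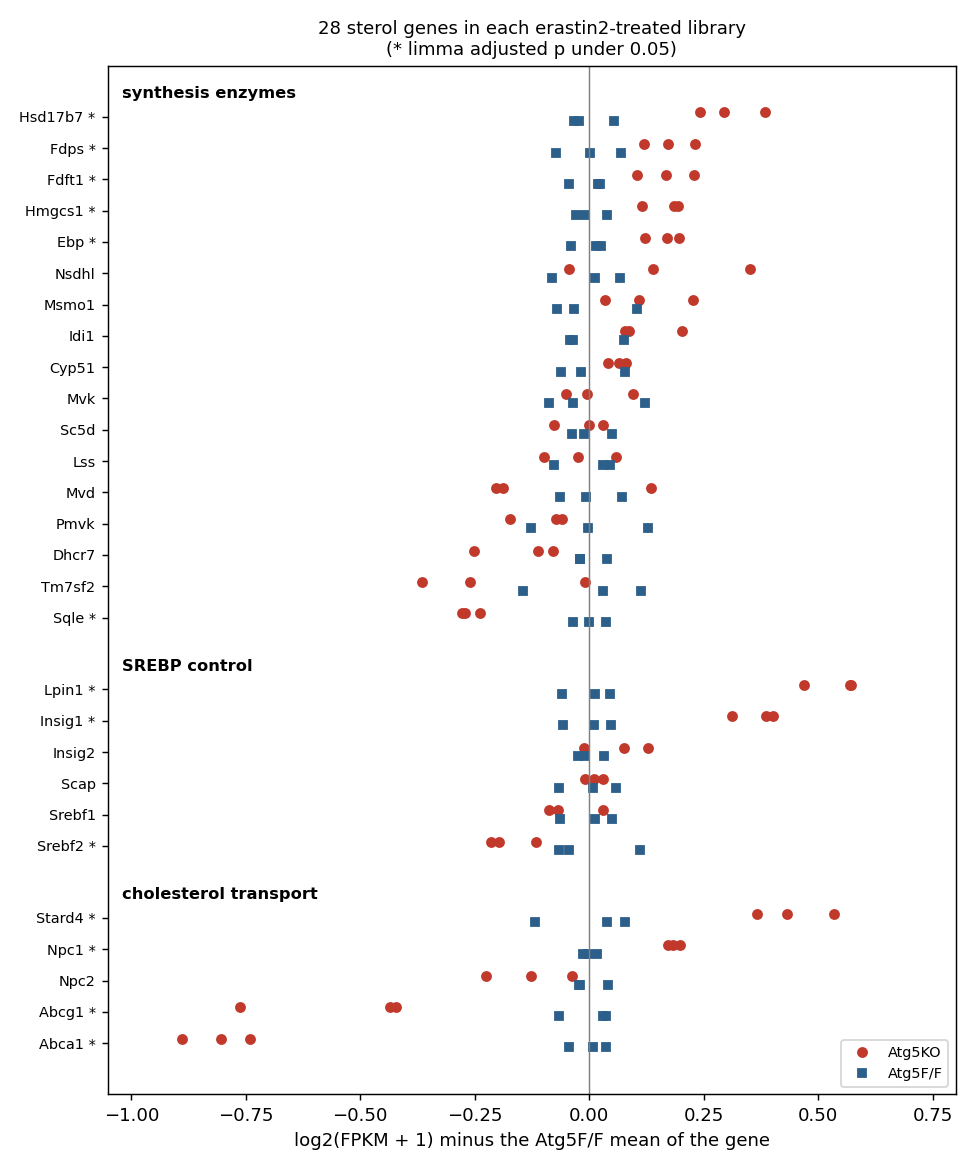
Each point is a library: the horizontal axis gives log2(FPKM + 1) minus the gene's mean in Atg5F/F-labelled libraries, genes are grouped by role and ordered by fold change, and asterisks mark the 13 called genes. Abca1 and Abcg1 lie far to the left of 0 in all 3 KO-labelled libraries, Lpin1, Stard4 and Insig1 to the right, and most synthesis enzymes close to 0.

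Promoter windows are shown for 4 members, 3 that rose and 1 that fell, picked after their values were seen, since SREBPs are known to act at promoters together with NF-Y. A window runs from 250 bases before to 50 bases after a transcription start (RefSeq, GRCm38.p6), and 22 of the 28 members had at least 1; Fdps, Fdft1, Sqle, Stard4, Abcg1 and Npc1 had none in the table. Capitals mark motifs found on either strand: the sterol regulatory element core CACNCCAC, the E-box CACGTG and the NF-Y box CCAAT (read ATTGG on the other strand). No marked motifs overlap each other in these windows. Insig1 lies at chr5:28071162-28071461 (+), Hmgcs1 at chr13:119690101-119690400 (+), Hsd17b7 at chr1:169969156-169969455 (-) and Abca1 at chr4:53159846-53160145 (-), and each is printed 5′ to 3′ on its own strand.
Insig1: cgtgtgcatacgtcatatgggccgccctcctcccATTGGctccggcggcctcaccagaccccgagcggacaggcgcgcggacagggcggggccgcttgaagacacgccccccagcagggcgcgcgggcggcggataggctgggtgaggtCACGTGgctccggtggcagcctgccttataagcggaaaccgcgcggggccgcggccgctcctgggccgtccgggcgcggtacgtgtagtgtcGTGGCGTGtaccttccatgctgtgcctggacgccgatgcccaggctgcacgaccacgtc
Hmgcs1: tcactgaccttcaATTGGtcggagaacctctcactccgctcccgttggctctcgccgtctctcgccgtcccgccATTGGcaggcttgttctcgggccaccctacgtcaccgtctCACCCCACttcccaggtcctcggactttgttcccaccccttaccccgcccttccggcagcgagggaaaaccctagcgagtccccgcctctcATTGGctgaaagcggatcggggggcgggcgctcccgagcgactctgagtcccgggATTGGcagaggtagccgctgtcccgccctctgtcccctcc
Hsd17b7: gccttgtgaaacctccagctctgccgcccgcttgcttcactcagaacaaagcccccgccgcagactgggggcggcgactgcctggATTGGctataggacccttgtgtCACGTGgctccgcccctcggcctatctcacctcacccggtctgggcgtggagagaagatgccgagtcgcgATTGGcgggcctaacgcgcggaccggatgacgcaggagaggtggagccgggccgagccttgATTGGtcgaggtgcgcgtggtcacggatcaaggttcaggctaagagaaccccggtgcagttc
Abca1: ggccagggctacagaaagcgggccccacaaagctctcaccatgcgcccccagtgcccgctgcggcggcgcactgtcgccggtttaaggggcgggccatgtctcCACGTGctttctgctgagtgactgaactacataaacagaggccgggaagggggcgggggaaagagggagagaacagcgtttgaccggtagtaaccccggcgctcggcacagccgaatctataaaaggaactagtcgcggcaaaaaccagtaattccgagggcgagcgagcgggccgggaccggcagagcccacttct

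The windows differ in what they hold. Positions are those of a motif's first base, counted from 0 at the start site. Insig1 has a sterol regulatory element core at -9, an E-box at -101 and an NF-Y box at -216. Hmgcs1 has a core at -136, with NF-Y boxes at -237, -176, -45 and 10. Hsd17b7 has 3 NF-Y boxes and an E-box but no core, and Abca1 has an E-box at -147 and neither of the others. Among members not shown, the window of Lpin1, the member with the largest rise, held none of the 3, and that of Mvk, which was not called, held 5 NF-Y boxes. Over all members with a window, the NF-Y box was present for 19 of 22 genes and in 66.7% of their 30 windows, against 37.4% of all 32851 windows. The E-box was present for 6 of 22 genes and in 23.3% of member windows, against 7.2% of all windows. The Scap windows overlap and share the same E-box, which was counted in each. The core was present for 2 of 22 genes, Hmgcs1 and Insig1, and both are among the windows shown. It was in 6.7% of member windows, against 6.2% of all windows. A match describes these letters only and shows no binding.

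Among the 17 synthesis enzymes, 5 rose and 1 fell, leaving 11 short of the threshold (35.3% called, against 39.2% of all genes tested); the median log2 fold change was 0.06 (0.02 over all genes tested). Their summed level was 211.5, 211.6 and 209.6 FPKM in KO-labelled libraries, against 205.4, 203.4 and 202.7 FPKM in F/F-labelled libraries. The sums did not overlap, though the group means of 210.9 ± 1.1 and 203.9 ± 1.4 FPKM (SD, n = 3 each) lie close together. The count of higher enzymes dropped to 2 when Atg5KO replicate 1 was left out, and also when Atg5F/F replicate 3 was. It was 3 if either of the other Atg5F/F libraries was removed and 4 if either of the other Atg5KO libraries was. Without Atg5KO replicate 2, 3 enzymes were called lower in place of 1, as Mvd and Tm7sf2 joined Sqle.

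In the mevalonate steps the changes were small. Hmgcs1, which makes HMG-CoA at the pathway's entry (chromosome 13, 119690379 to 119708260 in GRCm38), was 29.1, 27.5 and 28.9 FPKM in KO-labelled libraries, against 25.1, 26.0 and 24.7 FPKM in F/F-labelled libraries. Every KO-labelled value lay above every F/F-labelled value, a rise of 12.5% (log2 fold change 0.16, SE 0.040, limma adjusted p = 0.012). The call was lost without Atg5F/F replicate 3 (adjusted p = 0.057). Mevalonate kinase Mvk averaged 4.56 ± 0.29 FPKM in KO-labelled and 4.51 ± 0.42 FPKM in F/F-labelled libraries, at a log2 fold change of 0.01 (95% interval -0.16 to 0.18). The next kinase, Pmvk, averaged 4.55 ± 0.24 and 4.96 ± 0.53 FPKM (-0.10, interval -0.28 to 0.07), and dropping Atg5F/F replicate 3 gave a log2 fold change of -0.04, dropping Atg5F/F replicate 2 one of -0.16. Both kinases overlapped between the groups, and neither was called.

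Mvd, the decarboxylase that yields isopentenyl diphosphate, was 8.59, 11.1 and 8.69 FPKM in KO-labelled libraries, against 9.57, 10.6 and 9.99 FPKM in F/F-labelled libraries. Replicate 2 was the highest of each group and the highest KO-labelled value exceeded all others. The log2 fold change was -0.09 (SE 0.090, limma adjusted p = 0.48), and it was -0.20 (adjusted p = 0.037) without Atg5KO replicate 2. Idi1, the isomerase of isopentenyl diphosphate, stood at 6.76, 6.16 and 6.11 FPKM in KO-labelled libraries, against 5.58, 6.11 and 5.54 FPKM in F/F-labelled libraries. Its groups barely separated and it was not called (log2 fold change 0.12, limma adjusted p = 0.15).

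Both enzymes between isoprenoids and squalene rose. Fdps, the farnesyl diphosphate synthase that also supplies ubiquinone and prenylation, was 18.8, 19.6 and 18.1 FPKM in KO-labelled libraries, against 16.6, 15.7 and 17.4 FPKM in F/F-labelled libraries (a rise of 13.6%, log2 fold change 0.17, SE 0.051, limma adjusted p = 0.025). Fdft1, squalene synthase, was 9.30, 8.86 and 9.75 FPKM in KO-labelled libraries, against 8.29, 8.33 and 7.90 FPKM in F/F-labelled libraries (a rise of 13.8%, log2 fold change 0.17, SE 0.053, limma adjusted p = 0.035). In both genes all KO-labelled values lay above all F/F-labelled values. Neither call was firm. Fdps was not called without Atg5KO replicate 1 or 2 or Atg5F/F replicate 1 or 2 (adjusted p = 0.059 to 0.076). Fdft1 was called in only 7 of 16 alternatives, and was lost without every library but Atg5KO replicate 2 (adjusted p = 0.056 to 0.12). Exons of Fdft1 overlap those of Ctsb on the other strand and exons of Fdps overlap those of Gm43738 on the same strand, and although the library kit kept strand, whether the counting used it is not given in the sources used here.

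Sqle moved the other way. It encodes squalene monooxygenase, the oxygen-requiring step that commits squalene to sterols (chromosome 15, 59315077 to 59331192). Its levels were 22.5, 22.4 and 23.1 FPKM in KO-labelled libraries, against 26.7, 27.4 and 28.1 FPKM in F/F-labelled libraries. The groups were tight and did not overlap: Sqle fell by 17.2% (log2 fold change -0.26, SE 0.038, limma adjusted p = 9.1e-04) and was called in all 16 alternatives. Transcripts of the enzyme that makes squalene and of the one that consumes it thus had fold changes of opposite sign. The Fdft1 call held in only 7 of 16 alternatives, and the difference between Fdft1 and Sqle was not tested. Lss, lanosterol synthase and the next step, averaged 6.09 ± 0.39 FPKM in KO-labelled and 6.20 ± 0.33 FPKM in F/F-labelled libraries (log2 fold change -0.02, interval -0.17 to 0.12) and was not called.

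Past lanosterol, Hsd17b7 and Ebp rose and the other enzymes were not called. Hsd17b7, the ketoreductase of the sterol demethylation complex (chromosome 1, 169949535 to 169969241), was 5.61, 6.29 and 5.85 FPKM in KO-labelled libraries, against 4.80, 4.51 and 4.46 FPKM in F/F-labelled libraries. At 28.9% its rise was the largest among the 17 enzymes (log2 fold change 0.31, SE 0.062, limma adjusted p = 0.0049), and it was called in all 16 alternatives. Ebp, the sterol isomerase, was 17.5, 17.2 and 16.6 FPKM in KO-labelled libraries, against 15.4, 15.5 and 14.7 FPKM in F/F-labelled libraries (a rise of 12.7%, log2 fold change 0.16, SE 0.043, limma adjusted p = 0.016). The Ebp call was lost without Atg5KO replicate 1 (adjusted p = 0.059) or Atg5F/F replicate 3 (adjusted p = 0.072).

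The partners of Hsd17b7 in demethylation did not pass the test. Msmo1, the methylsterol monooxygenase and the most abundant of the 17 enzymes, was 36.6, 31.9 and 33.7 FPKM in KO-labelled libraries, against 33.6, 29.7 and 30.4 FPKM in F/F-labelled libraries. Within each group replicate 1 was the highest and replicate 2 the lowest, and the groups overlapped (log2 fold change 0.12, limma adjusted p = 0.15, or 0.029 with the replicate number as a block). Nsdhl, the decarboxylating dehydrogenase, was 5.37, 6.23 and 7.38 FPKM in KO-labelled libraries, against 5.89, 5.63 and 5.21 FPKM in F/F-labelled libraries. The groups overlapped, since Atg5KO replicate 1 lay within the F/F-labelled range while the other KO-labelled values lay above it, with a wide interval for the log2 fold change of -0.07 to 0.37. Cyp51, the lanosterol demethylase, averaged 7.95 ± 0.12 FPKM in KO-labelled and 7.58 ± 0.42 FPKM in F/F-labelled libraries (log2 fold change 0.06, interval -0.06 to 0.19).

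Tm7sf2, Sc5d and Dhcr7 were not called. Tm7sf2, a sterol reductase that acts on the product of Cyp51, was 3.67, 4.55 and 3.34 FPKM in KO-labelled libraries, against 4.71, 5.05 and 4.06 FPKM in F/F-labelled libraries (log2 fold change -0.21, interval -0.45 to 0.03, limma adjusted p = 0.14). Replicate 2 was the highest in each group, and the gene was called with the replicate block (adjusted p = 0.042) and without Atg5KO replicate 2 (adjusted p = 0.033). Its exons overlap those of Vps51 on the same strand. Sc5d, the desaturase that makes 7-dehydrocholesterol, averaged 20.6 ± 0.81 FPKM in KO-labelled and 20.9 ± 0.69 FPKM in F/F-labelled libraries, with a log2 interval of -0.12 to 0.09. Dhcr7, which turns 7-dehydrocholesterol into cholesterol, was 5.01, 4.87 and 4.33 FPKM in KO-labelled libraries, against 5.25, 5.26 and 5.52 FPKM in F/F-labelled libraries. Its groups did not overlap, yet it missed the threshold (log2 fold change -0.15, SE 0.065, limma adjusted p = 0.10) and was called in none of the 16 alternatives.

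Of 6 genes of SREBP control, 2 rose and 1 fell (3 of 6 called, where 39.2% of all genes tested were), and the median log2 fold change was 0.04; the other 3 were not called. Lpin1 encodes lipin-1, a phosphatidate phosphatase whose gene SREBPs switch on and which also acts in the nucleus on SREBP activity (chromosome 12, 16535669 to 16610966). It was 9.75, 9.76 and 9.03 FPKM in KO-labelled libraries, against 5.96, 6.48 and 6.30 FPKM in F/F-labelled libraries. The lowest KO-labelled value was well above the highest F/F-labelled one, and the rise of 52.3% was the largest of the 28 members (log2 fold change 0.54, SE 0.055, limma adjusted p = 1.4e-04). Insig1, the sterol-sensing anchor of SCAP and itself a classic SREBP target (chromosome 5, 28071363 to 28078662), was 7.43, 7.34 and 6.92 FPKM in KO-labelled libraries, against 5.14, 5.59 and 5.43 FPKM in F/F-labelled libraries. It rose by 34.3% (log2 fold change 0.37, SE 0.057, limma adjusted p = 0.0013), and both Lpin1 and Insig1 were called in all 16 alternatives.

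The other anchor was far more abundant and was not called. Insig2 was the most abundant gene of SREBP control, at 46.6, 48.4 and 43.8 FPKM in KO-labelled libraries, against 43.5, 45.2 and 43.9 FPKM in F/F-labelled libraries (log2 fold change 0.06, interval -0.04 to 0.16). Insig1 thus stood at 7.23 ± 0.27 FPKM beside 46.3 ± 2.3 FPKM of Insig2 in KO-labelled libraries, and at 5.39 ± 0.23 beside 44.2 ± 0.93 FPKM in F/F-labelled libraries. Scap, the escort, averaged 32.6 ± 0.45 FPKM in KO-labelled and 32.4 ± 1.4 FPKM in F/F-labelled libraries (interval -0.08 to 0.11). Srebf1, the gene of SREBP-1 and also an LXR target, averaged 22.3 ± 1.0 and 23.0 ± 0.95 FPKM (log2 fold change -0.04, interval -0.15 to 0.07). Neither Scap nor Srebf1 was called.

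Srebf2 encodes SREBP-2, the main activator of sterol synthesis. It was 30.7, 32.6 and 30.3 FPKM in KO-labelled libraries, against 33.7, 38.2 and 34.3 FPKM in F/F-labelled libraries. All KO-labelled values lay below all F/F-labelled values, with Atg5F/F replicate 2 standing above the rest, and the gene fell by 11.9% (log2 fold change -0.18, SE 0.054, limma adjusted p = 0.031). The call was lost in 6 of 16 alternatives. Among them were leaving out Atg5KO replicate 1 (adjusted p = 0.088), Atg5KO replicate 3 (0.084), Atg5F/F replicate 2 (0.078, at a log2 fold change of -0.12) or Atg5F/F replicate 3 (0.052).

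Of 5 transport genes, 2 rose, 2 fell and 1 was not called, and in all 5 the groups did not overlap (median log2 fold change -0.13). Over all genes tested 39.2% were called and 51.9% did not overlap, and a list of 5 is too short to set against those shares. Abca1, the pump that hands cholesterol to lipid-poor apolipoprotein, carried the largest change of the 28 members (chromosome 4, 53030787 to 53159895). Its levels were 21.7, 20.4 and 22.7 FPKM in KO-labelled libraries, against 37.4, 38.8 and 39.6 FPKM in F/F-labelled libraries. Values within a group were within a few FPKM of each other, far less than the gap between groups (log2 fold change -0.81, SE 0.047, interval -0.92 to -0.70, limma adjusted p = 7.2e-06). Abcg1, the pump that loads high-density lipoprotein, was 3.26, 2.40 and 3.30 FPKM in KO-labelled libraries, against 4.50, 4.90 and 4.88 FPKM in F/F-labelled libraries. Atg5KO replicate 2 was the lowest, and the groups did not overlap (log2 fold change -0.54, SE 0.097, interval -0.76 to -0.32, limma adjusted p = 0.0028). Each of the pumps was called under every alternative in which it was tested, 16 for Abca1 and 15 for Abcg1.

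**Figure D2:**
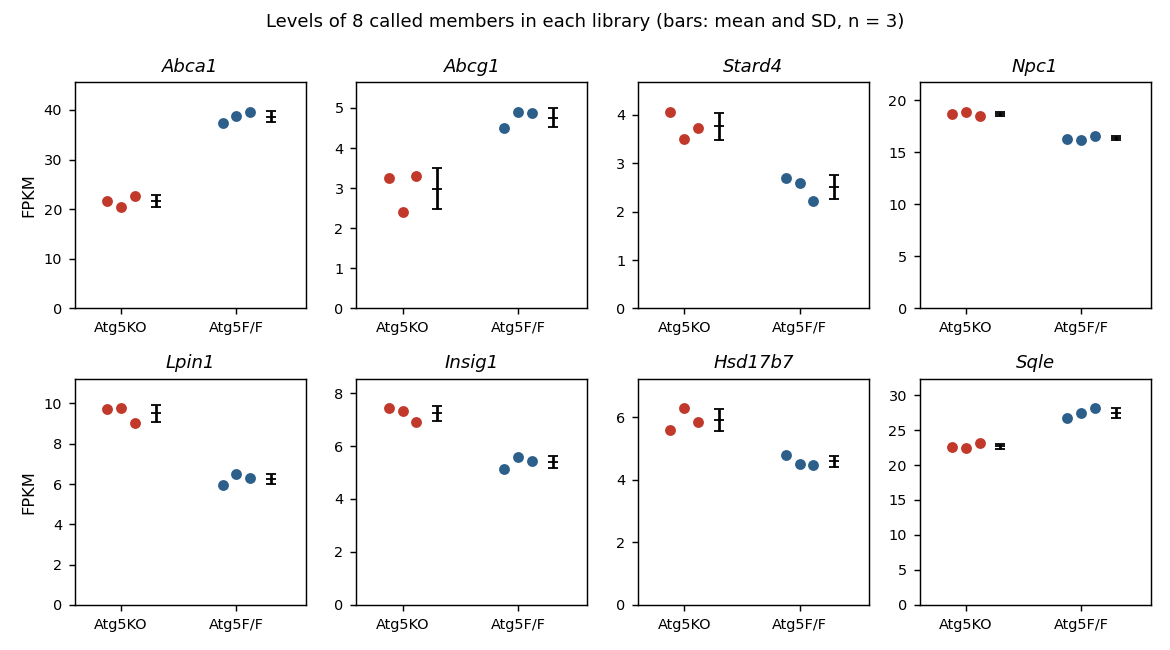
FPKM (vertical axis, from 0) of the 8 members called under every alternative in which they were tested, in 3 Atg5KO-labelled and 3 Atg5F/F-labelled libraries. Points are libraries in replicate order and bars the mean with SD. The groups do not overlap in any panel, from Abca1 at 21.6 and 38.6 FPKM on average to the smaller step of Npc1 at 18.7 and 16.3 FPKM.

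Inside the cell, Stard4 and Npc1 rose and Npc2 was not called. Stard4, which shuttles cholesterol between membranes and is switched on by SREBP-2 (chromosome 18, 33199355 to 33213862), was 4.06, 3.50 and 3.72 FPKM in KO-labelled libraries, against 2.69, 2.59 and 2.22 FPKM in F/F-labelled libraries. At 120 to 241 reads a library it was among the lowest members, and it rose by 50.4% (log2 fold change 0.44, SE 0.081, limma adjusted p = 0.0029). Npc1, the membrane protein that takes cholesterol out of the lysosome (chromosome 18, 12189692 to 12236400), was 18.7, 18.9 and 18.5 FPKM in KO-labelled libraries, against 16.3, 16.2 and 16.5 FPKM in F/F-labelled libraries. Replicates agreed closely and the rise of 14.5% was called in all 16 alternatives (log2 fold change 0.18, SE 0.038, limma adjusted p = 0.0053). With the trend on gene length removed, the Npc1 log2 fold change was 0.12 (adjusted p = 0.035). Exons of Npc1 overlap those of Rmc1 on the other strand.

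Npc2, the soluble partner that passes cholesterol to NPC1 and the most abundant of the 28 members, was 48.8, 52.0 and 45.6 FPKM in KO-labelled libraries, against 55.0, 52.6 and 52.7 FPKM in F/F-labelled libraries. Its groups just failed to overlap, since Atg5KO replicate 2 nearly reached the lowest F/F-labelled values. The log2 fold change was -0.13 (SE 0.051, limma adjusted p = 0.071), and 4 of 16 alternatives called it lower, among them the fit without Atg5KO replicate 2 (-0.18, adjusted p = 0.023). The partners of lysosomal export therefore had fold changes of opposite sign, with Npc1 past the threshold and Npc2 short of it; the difference between them was not tested.

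**Figure D3:**
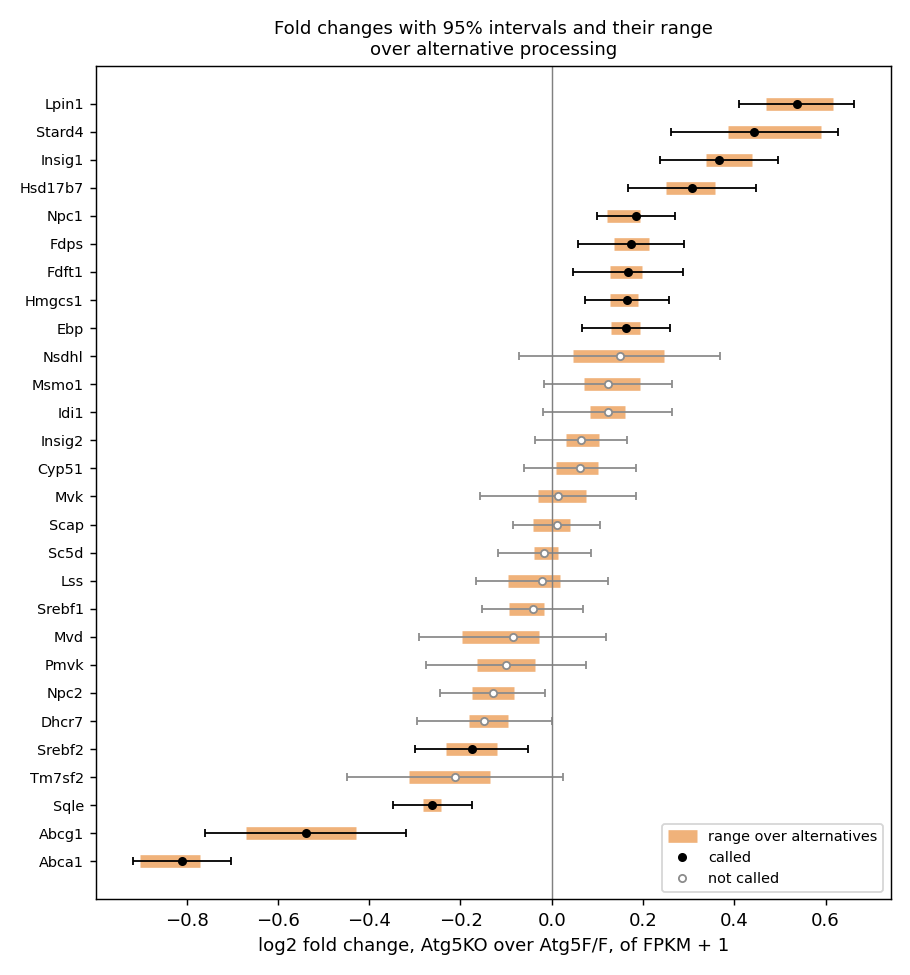
Log2 fold changes of FPKM + 1, Atg5KO-labelled over Atg5F/F-labelled, for the 28 members, with 95% intervals (thin bars) and the range over up to 16 alternatives (orange). Filled points are called; the ranges of all 13 called genes stay on their side of 0, while those of Mvk, Scap, Sc5d and Lss cross it.

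Levels among the members spanned a wide range. In F/F-labelled libraries 10 members averaged over 20 FPKM, 12 between 5 and 20 FPKM and 6 under 5 FPKM, from 53.4 ± 1.4 FPKM of Npc2 to 2.50 ± 0.25 FPKM of Stard4. Replicates varied little: the median coefficient of variation of FPKM was 5.1% in KO-labelled and 4.4% in F/F-labelled libraries. The widest were Abcg1 at 17.1% in KO-labelled libraries and Tm7sf2 at 11.0% in F/F-labelled libraries. Replicate 2 gave the highest value of its group for 13 members among KO-labelled and 15 among F/F-labelled libraries.

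A wider list of 55 other genes of sterol synthesis, SREBP control and cholesterol handling, written from general knowledge, was read from the same fit. Of its 46 tested genes, 10 rose and 10 fell (43.5% called, near the 39.2% of all genes), and the median log2 fold change was 0.01. The 8 called genes with the largest changes are described first. Of these 8, Nr1h3, Cyp27a1, Lipa, Abca2 and Apoe fell. Nr1h3, which encodes LXR-alpha, was 2.42, 2.53 and 2.23 FPKM in KO-labelled libraries, against 3.57, 4.27 and 4.33 FPKM in F/F-labelled libraries (log2 fold change -0.57, SE 0.082, limma adjusted p = 8.1e-04). Cyp27a1, a mitochondrial hydroxylase that makes an oxysterol ligand of LXR, was 1.96, 1.94 and 2.49 FPKM in KO-labelled libraries, against 4.36, 4.87 and 4.26 FPKM in F/F-labelled libraries. It fell by 52.6% (log2 fold change -0.82, SE 0.089), and neither gene overlapped between the groups. Lipa, the lysosomal acid lipase that frees cholesterol from its esters, was 20.3, 19.8 and 19.6 FPKM in KO-labelled libraries, against 28.8, 30.3 and 27.8 FPKM in F/F-labelled libraries (-0.52, SE 0.043). Abca2, a transporter of late endosomes, fell as well (9.58 ± 0.72 FPKM in KO-labelled and 13.7 ± 0.85 FPKM in F/F-labelled libraries, -0.48).

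Apoe, the apolipoprotein that accepts exported cholesterol and a known LXR target, was 2.33, 2.16 and 2.75 FPKM in KO-labelled libraries, against 3.07, 3.86 and 3.08 FPKM in F/F-labelled libraries. The groups did not overlap and it fell by 27.5% (log2 fold change -0.34, SE 0.098, limma adjusted p = 0.024), on 58 to 146 reads a library. Its call was lost in 4 of 15 alternatives, among them the fits without Atg5KO replicate 1 (adjusted p = 0.066), Atg5KO replicate 2 (0.068) and Atg5F/F replicate 2 (0.073).

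Nr1h2 and Mylip, named after their values were seen, were not called. Nr1h2, which encodes LXR-beta, averaged 46.7 ± 2.8 FPKM in KO-labelled and 51.2 ± 2.1 FPKM in F/F-labelled libraries (log2 fold change -0.13, limma adjusted p = 0.073), and Mylip, an LXR target, averaged 7.77 ± 0.13 and 8.08 ± 0.48 FPKM (-0.05, adjusted p = 0.52). Srebf1, described above, was not called either. Of the 8 genes, Cav1, Rnf145 and Osbpl9 rose, with groups that did not overlap. Cav1, the coat protein of caveolae, was 28.4, 23.9 and 21.3 FPKM in KO-labelled libraries, against 12.6, 10.3 and 12.8 FPKM in F/F-labelled libraries (0.98, SE 0.11, limma adjusted p = 1.9e-04). Smooth muscle cells and endothelium also express it in quantity. The smooth muscle markers Acta2, Tagln and Cnn1 averaged 202.2, 64.9 and 2.31 FPKM in KO-labelled libraries. Their F/F-labelled means were 40.5, 28.6 and 0.88 FPKM. Myh11 and Des, of the same list, averaged 0.059 and 0.036 FPKM in KO-labelled libraries, against 0.052 and 0.019 FPKM in F/F-labelled libraries. Of the endothelial markers, Kdr averaged 5.53 and 9.06 FPKM in KO-labelled and F/F-labelled libraries. The others averaged at most 0.15 FPKM in either group. The part of such cells in the Cav1 difference was not tested. Rnf145, an LXR-induced ubiquitin ligase that acts on SCAP, was 30.0, 32.2 and 32.2 FPKM in KO-labelled libraries, against 22.3, 21.5 and 22.2 FPKM in F/F-labelled libraries (0.50, SE 0.042). Osbpl9, an oxysterol-binding-protein relative that carries lipids between membranes, averaged 53.2 ± 1.5 FPKM in KO-labelled and 42.2 ± 0.88 FPKM in F/F-labelled libraries (0.33, SE 0.038).

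**Figure D4:**
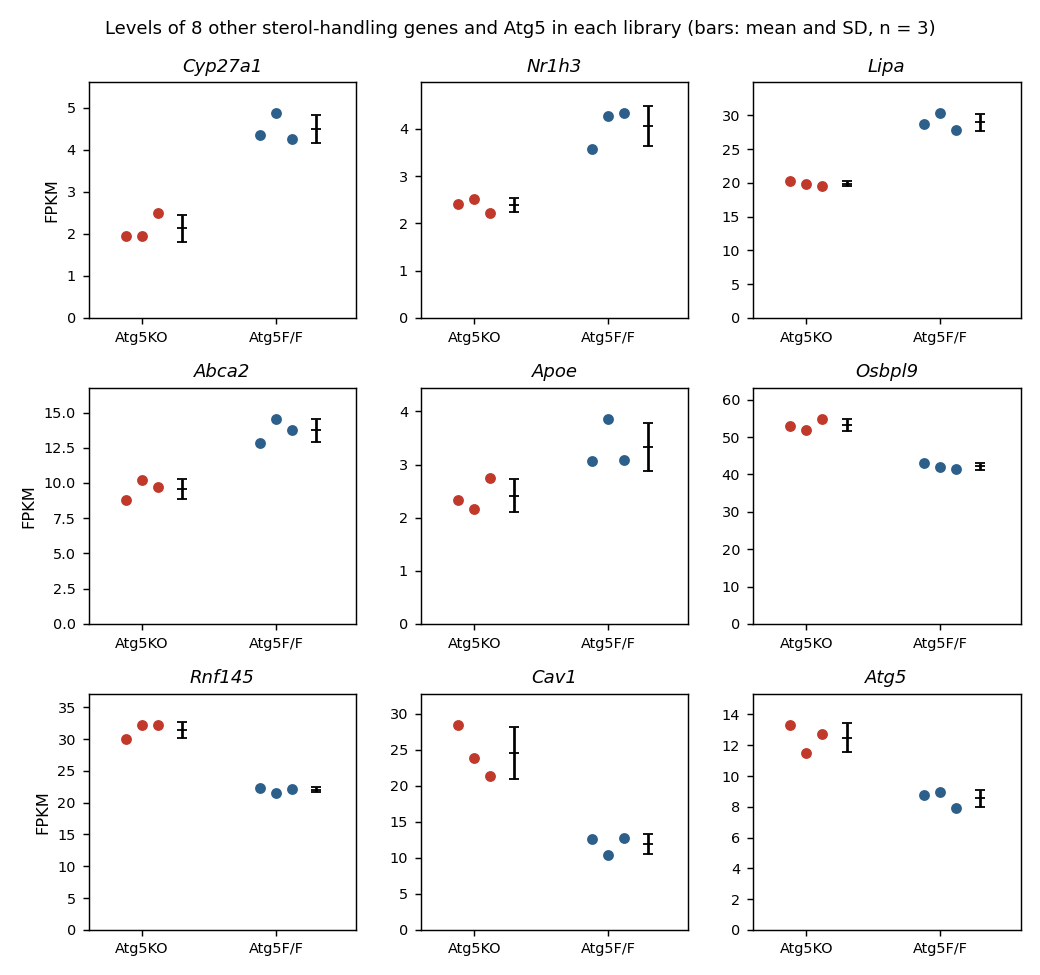
FPKM (vertical axis, from 0) of 8 other genes of cholesterol handling and of Atg5 in 3 Atg5KO-labelled and 3 Atg5F/F-labelled libraries; points are libraries in replicate order and bars the mean with SD. Cyp27a1, Nr1h3, Lipa, Abca2 and Apoe are lower and Osbpl9, Rnf145, Cav1 and Atg5 higher in every KO-labelled library than in any F/F-labelled library.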

How the data were processed

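The deposited table gave an FPKM per gene and library, made by the authors; the submitters' processing notes name HISAT2 2.1.0, featureCounts 1.4.6, Trimmomatic 0.35, bcl2fastq and edgeR, with mm10 (GRCm38). Annotation and strand setting: not given in the sources used here. Beside FPKM, the deposited table holds a log2 fold change, p-values and an FDR, and a rank score that was not used. The deposited columns were joined to samples by title, and genotype came from the labels.

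FPKM values were turned back into whole reads and gene lengths (17030 genes above 0 in at least 2 libraries, 100% recovered within 2.0e-04 reads plus a relative 3e-09). The main test was limma 3.58.1 (R 4.3.3; lmFit, eBayes with trend) on log2(FPKM + 1) of the 11559 genes that reached 1 FPKM in 3 or more libraries, with Benjamini-Hochberg adjustment. Both steps were run on simulated data, with outcomes not given here. The simulated data for limma changed far fewer genes than were called here and carried no trend on gene length. Intervals are 95%. The members and lists were chosen with earlier results of these data known. Named genes are all members, Atg5 and, of the 55 other genes, the called ones with the largest absolute log2 fold change and no overlap, up to 8; Nr1h2, Mylip and single markers were added after their values were seen. Coordinates are from GENCODE vM21 (GRCm38) and promoter windows from RefSeq (GRCm38.p6). Alternatives tried: each library left out, the replicate number as a block, quantile or median-ratio scaling, robust or untrended eBayes, a 0.1 pseudocount, a 5 FPKM filter or none, voom on recovered reads, and removal of each library's loess trend on gene length. Python 3.11.15, pandas 2.3.3, numpy 2.4.6 and matplotlib 3.10.9 were used.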

Additional observations from a re-analysis of the deposited data

How the results depend on the processing

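Of 13 called members, 8 (Sqle, Hsd17b7, Insig1, Lpin1, Stard4, Abca1, Abcg1 and Npc1) were called under every alternative in which they were tested, and no called member changed sign. Over 443 values of members under alternatives, 398 kept direction and side of the threshold, 23 lost the call, 9 gained it and 13 changed sign. Hmgcs1, Fdps, Fdft1, Ebp and Srebf2 lost their calls in 1, 5, 9, 2 and 6 of 16 alternatives. Sign changes were limited to members with fold changes near 0. Mvk (0.01) was -0.0035 with median-ratio scaling, -0.0181 with quantile normalization and -0.0297 to 0.0747 over left-out libraries. Lss (-0.02) ran from -0.0617 to 0.0174 and Sc5d (-0.02) from -0.0388 to 0.0143 over left-out libraries. Scap (0.01) was -0.0101 with median-ratio scaling, -0.0024 with quantile normalization, -0.0405 with the length trend removed and -0.0223 to 0.0395 over left-out libraries. Counts over left-out libraries were 3 to 7 members lower, 2 to 4 synthesis enzymes higher, 1 to 3 synthesis enzymes lower and 0 to 1 SREBP control genes lower. That last count was 0 with no filter and without a variance trend. With a filter of 5 FPKM, which drops low genes, 1 transport gene was higher and 1 lower, and the members' median was 0.0645.

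With the replicate block 2 synthesis enzymes were lower, and 9 members were higher and 5 lower; Fdft1 lost its call (adjusted p = 0.056) and Msmo1 (0.029) and Tm7sf2 (0.042) gained one. Same-numbered libraries correlated at 0.16, 0.08 and -0.02 in their deviations from group means, and Atg5KO replicate 3 correlated best with Atg5F/F replicate 2 (0.05), so the numbers were not taken as pairs. Deviations from gene means followed gene length (Spearman rho across genes 0.04 to 0.34 in KO-labelled and -0.23 to -0.16 in F/F-labelled libraries). Once the trend was taken out, Fdft1 lost its call (adjusted p = 0.081) and Npc2 and Msmo1 gained one (adjusted p = 0.032 and 0.040). Reads limit precision most for Tm7sf2 (86 to 209 reads a library), Pmvk, Mvk and Stard4.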

Other observations

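The authors' deposited table gives its own fold changes and FDR for the members. At an FDR under 0.05 it holds 11 of the 28, with 6 higher and 5 lower in the Atg5KO-labelled libraries, where limma called 13. In the authors' deposited table Npc2 had a log2 fold change of -0.16 at FDR 0.0034, while limma did not call it. In the other direction the authors' deposited table gives Fdps an FDR of 0.17, Fdft1 0.096 and Ebp 0.17, though limma called all 3. For Abca1 the authors' deposited table lists a log2 fold change of -0.87 and for Stard4 0.56.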
